A study of Mus musculus with 15 samples.

Results

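The level of each gene in a mouse biliary epithelial cell line was compared between libraries taken at 24 h and at 12 h, the later time over the earlier. Genes were chosen by their mean level alone: a mean normalised read count of 50 or more in both of the authors' deposited tables, which 9861 of the 24421 gene symbols reached. The shift itself is computed from the same means, so its size is described and not tested. Biliary epithelial cells line the bile ducts. The line, an established one from ducts of adult mice per the labels, carries the transgene ITR-CreERT2, a Cre recombinase that 4-OH tamoxifen switches on, and Klf5flox/flox, floxed alleles of the Krüppel-like transcription factor gene Klf5. All 4 groups share this genotype: 3 ethanol and 4 tamoxifen libraries at 12 h, and 4 ethanol and 4 tamoxifen libraries at 24 h, where ethanol is the solvent control. Ethanol replicate 2 of the 12 h group is not used here. The series title speaks of 3D growth in vitro and its design text of growth in vivo, so the growth form is not settled by the sources used here. The labels do not say whether libraries came from separate cultures, so errors measure the spread among these libraries, which may be technical. Because 12 h and 24 h libraries were tabulated separately, time and any batch of the libraries cannot be told apart.

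A bulk RNA level is a share of the RNA in a library. A gene's share can differ between times because its RNA differs in the cells or because the cells that hold it differ in number, and in bulk samples fewer cells of a type and less RNA per cell cannot be told apart. Epithelial cells in culture alternate between growth and rest. Growing cells carry the RNAs of DNA replication and mitosis in the phases that use them and draw on sterol and fatty acid synthesis for membrane, whereas cells short of amino acids or with misfolded protein in the endoplasmic reticulum (ER) turn on stress programmes through the transcription factors ATF4, XBP1 and ATF6.

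The deposited mean normalised counts summed to 13.9 M per library at 12 h and 11.8 M at 24 h. A level is given as CPM, the gene's mean over both arms as a share of that sum scaled to 1 M, and the shift is the log2 ratio of the 24 h to the 12 h level. Its standard error (SE) was derived from the deposited errors of the tamoxifen folds at both times, for means over 7 and 8 libraries, and holds no error between times. Levels by arm are group means, so whether single libraries of the groups overlap is not known. Levels are compared between times for a gene and not between genes, because counts depend on transcript length. The biliary keratin genes Krt8, Krt18 and Krt19 were present at both times, and the sum of 12 biliary markers was 10736 CPM at 12 h and 5275 CPM at 24 h. Not all of the 12 were present. Epcam lay at 1.13 and 0.808 CPM, Onecut1 at 0.255 and 0.272 CPM and Prom1 at 0.122 and 0.0422 CPM. Markers of 3 other cell types were near 0: 9 fibroblast and stellate markers summed to 2.15 and 0.956 CPM with Col1a2, Col3a1, Dcn, Lum and Lrat at 0, 6 endothelial markers to 0.179 and 0.197 CPM with Cdh5 and Stab2 at 0, and 3 erythroid markers were at 0. Immune and hepatocyte markers were not all near 0. Of the 8 immune markers, which summed to 5.87 and 6.60 CPM, nearly all came from Cd68, with Cd3e, Adgre1 and Clec4f at 0, but a longer list of 15 summed to 83.2 and 39.9 CPM through the endotoxin coreceptor gene Cd14 (77.0 and 32.9 CPM). The 7 hepatocyte markers summed to 689 and 411 CPM, mostly from the transcription factor gene Hnf4a, while Alb lay at 0.265 and 0.125 CPM and Cyp3a11 at 0. A longer list of 22 hepatocyte markers ran the other way, from 2137 to 3193 CPM, because the apolipoprotein gene Apob went from 857 to 2318 CPM (1.44 ± 0.26, SE). Cd14 and Apob are named after their values were seen.

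Levels differed widely between the times. At 24 h, 731 genes were at least 2-fold higher, 7.41% of the members, and 845 were at least 2-fold lower, 8.57%. At 1.5-fold there were 1866 higher (18.9%) and 2100 lower (21.3%), and at 4-fold 32 higher and 72 lower. The median shift was -0.05, with quartiles of -0.51 and 0.44 and a range from -4.12 to 3.41. The median SE was 0.09, and 79.2% of the shifts exceeded 2 SE. The shift had the same direction in the ethanol and the tamoxifen libraries, each split from the deposited mean and fold, for all 731 and all 845 genes. Of them 610 and 718 were 2-fold shifted in both arms. Both arms enter the mean by which these genes were picked, so a shared direction follows largely from that choice and is no separate evidence. The minimum left out 459 genes that reached it at 12 h only, of which 263 were 2-fold lower at 24 h, and 122 that reached it at 24 h only, of which 81 were 2-fold higher. Just inside the minimum were Sp3os, with a mean of 50.1 normalised counts at 24 h and a shift of 0.07, and Cdkn2d, with 50.1 and a shift of -1.83. Just outside were Mfsd9 and Tbc1d2, with means of 49.8 and 49.8 at 24 h and shifts of -0.35 and -0.34.

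**Figure D1:**
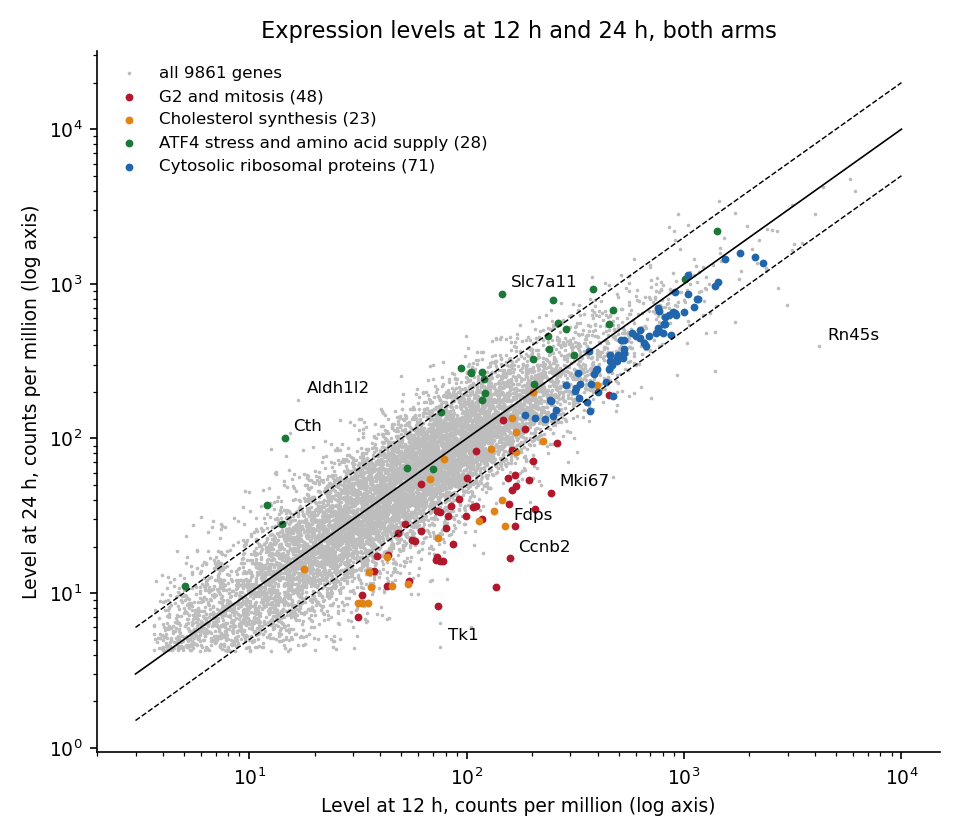
Level of each of 9861 genes at 12 h (x axis) and 24 h (y axis), both in CPM on log axes, over all libraries of a time; the solid line marks equal levels and the dashed lines a 2-fold difference. Mitosis and cholesterol synthesis genes lie mostly below the lower dashed line or near it, cytosolic ribosomal protein genes mostly between it and the solid line, and most genes of ATF4 stress and amino acid supply on or above the solid line.

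Genes of the cell cycle were frequent among the lowest shifts. Tk1, thymidine kinase, which salvages thymidine for DNA synthesis (chromosome 11, 117815526 to 117826092 on GRCm38), stood at 80.8 CPM in ethanol and 71.2 CPM in tamoxifen libraries at 12 h, and at 4.43 and 4.57 CPM at 24 h. Its shift was -4.06 ± 0.18 (SE), and both 24 h groups lay far below both 12 h groups. Cdca3, an adaptor that marks the mitotic inhibitor kinase Wee1 for destruction (chromosome 6, 124829547 to 124833701), stood at 138 and 135 CPM at 12 h and at 10.2 and 11.9 CPM at 24 h, a shift of -3.63 ± 0.11 (SE). Cyclin B2 (Ccnb2), a partner of the mitotic kinase Cdk1, stood at 150 and 165 CPM at 12 h and at 13.6 and 20.2 CPM at 24 h (-3.23 ± 0.12, SE). Of the other cell cycle genes among the 20 lowest shifts, the passenger complex kinase gene Aurkb lay at -3.15, the kinase gene Melk at -2.77, survivin (Birc5) at -2.61, the cytokinesis kinesin gene Kif20a at -2.57 and the DNA helicase gene Pif1 at -2.53. Genes outside the cell cycle lists were present too. They included the troponin T gene Tnnt2 at -2.70, the nucleosome-binding protein gene Hmgn5 at -2.68, Plac8 at -2.60 and the class I-like gene H2-M1 at -2.56. Kif20a and Nrm (-2.65), which encodes a nuclear envelope protein, share 29.3% and 13.6% of their exon bases with a gene on the opposite strand, and the unstranded libraries cannot separate these.

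Among the same 20 were 3 features that stood apart from the rest in kind. Rn45s, the precursor of the large ribosomal RNAs, stood at 4158 and 4214 CPM in ethanol and tamoxifen libraries at 12 h and at 432 and 356 CPM at 24 h, a shift of -3.41 ± 0.08 (SE). The annotated microRNA gene Mir6236 had a shift of -4.12 ± 0.12 (SE), the lowest of all members, and Lars2, the mitochondrial leucyl-tRNA synthetase gene, one of -3.05 ± 0.06 (SE), from 470 to 56.7 CPM. A count at Mir6236 in libraries of long RNA is not a measure of the mature microRNA. The 3 features moved together between the times and little between the arms: the shifts in ethanol and tamoxifen libraries were -3.27 and -3.57 for Rn45s, -4.13 and -4.15 for Mir6236, and -3.12 and -3.00 for Lars2. Leaving them out of the sum that scales the levels moved the median shift of all genes by -0.01. Their part in other shifts was otherwise not tested.

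The 20 highest shifts held no gene of the replication and mitosis lists and were spread over metabolism, signalling and matrix. Aldh1l2, a mitochondrial enzyme of folate metabolism (chromosome 10, 83487450 to 83534140), stood at 18.4 and 15.7 CPM at 12 h and at 186 and 171 CPM at 24 h, the highest shift at 3.41 ± 0.57 (SE). Cth, cystathionine gamma-lyase, which makes cysteine (chromosome 3, 157894248 to 157925077), stood at 17.1 and 12.8 CPM at 12 h and at 111 and 92.1 CPM at 24 h (2.79 ± 0.36, SE). Slc7a11, which imports cystine in exchange for glutamate, stood at 123 and 163 CPM at 12 h and at 901 and 827 CPM at 24 h (2.57 ± 0.27, SE). All 3 were higher in both 24 h groups than in either 12 h group. Trp53inp1, a p53-induced regulator of autophagy, went from 79.4 and 114 CPM to 465 and 458 CPM with a smaller error (2.22 ± 0.11, SE). Further shifts were 2.82 for the Rab activator gene Dennd4a, 2.38 for the histone demethylase gene Kdm7a, 2.32 for the heparan sulfate epimerase gene Glce, 2.19 for the Src-family kinase gene Fyn and 2.13 for the zinc transporter gene Slc30a4. Those of the matricellular gene Wisp1 and the collagenase gene Mmp13 were 2.25 and 2.20. Mmp13 also fell with tamoxifen at both times in the authors' deposited table (log2 folds of -1.17 at 12 h and -1.31 at 24 h), and its level in ethanol and tamoxifen libraries went from 19.2 and 8.55 CPM to 85.9 and 34.6 CPM. Aldh1l2 and Angptl6 (2.19) share 14.1% and 16.8% of their exon bases with a gene on the opposite strand.

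The errors of the 2 ends of the ranking differed. Of the 20 highest shifts, 9 belonged to genes whose 12 h fold had a deposited SE of at least 0.5. This compares with 0 of the 20 lowest and 84 of all 9861 members (0.852%). Predicted genes, Rik clones and pseudogenes were included in this count, unlike in the 20 described above for each end. Of the 84 genes with so wide an SE 80 were higher at 24 h and 44 at least 2-fold so. At 24 h only 1 member had an SE that wide. The deposited SE grows with the spread among libraries of an arm, so these genes differed among 12 h libraries far more than other genes did. Values per library were not analysed here, so how many 12 h libraries carry the spread is not known.

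Genes of DNA replication and of mitosis were lower at 24 h as groups. Of 45 measured genes of G1/S and DNA replication 27 were at least 2-fold lower (60%, beside 8.57% of all members) and 0 higher. The median shift was -1.24, beside -0.05 for all genes. DNA ligase 1 (Lig1) stood at 109 and 110 CPM at 12 h and at 24.9 and 25.3 CPM at 24 h (-2.13 ± 0.11, SE), and the primase subunit gene Prim1 had a shift of -2.11. The ribonucleotide reductase subunit gene Rrm2 stood at 324 and 268 CPM at 12 h and at 76.8 and 64.7 CPM at 24 h (-2.04 ± 0.14, SE). The histone chaperone gene Chaf1b, the maintenance methylation factor gene Uhrf1 and the helicase loader gene Cdc45 had shifts of -1.89, -1.84 and -1.81. Median shifts were -1.24 in ethanol and -1.29 in tamoxifen libraries. At 24 h the authors' deposited table calls 0 of the 45 higher with tamoxifen, beside 6.5% of all members. It calls 2 of them lower, beside 7.18% of all members.

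All 48 genes of the G2 and mitosis list were measured, and 40 were at least 2-fold lower at 24 h (83.3%, beside 8.57% of all members). The list had a median of -1.54 and a range from -3.63 to -0.17. Mki67, the proliferation marker Ki-67, stood at 241 and 249 CPM in ethanol and tamoxifen libraries at 12 h and at 35.4 and 53.8 CPM at 24 h (-2.46 ± 0.14, SE). The kinetochore gene Cenpf stood at 72.3 and 82.4 CPM at 12 h and at 10.6 and 21.9 CPM at 24 h (-2.26 ± 0.15, SE). In both genes the 24 h groups lay below the 12 h groups, and the ethanol group at 24 h was the lowest. This order was common in the list: the shift in ethanol libraries was below that in tamoxifen libraries for 44 of 48 genes, with medians of -1.66 and -1.42. Over all members the median difference of the shifts, tamoxifen minus ethanol, was 0.004. The authors' deposited table calls 20 of the 48 higher with tamoxifen at 24 h, beside 6.5% of all members, 0 lower, and 0 in either direction at 12 h, beside 1.02% of all members. For no single mitosis gene did the difference of the shifts between arms pass the threshold of an adjusted p under 0.05, the nearest values being 0.90 ± 0.29 (SE) for the kinetochore motor gene Cenpe and 0.78 ± 0.24 (SE) for the kinesin gene Kif20b. Cell cycle inhibitors did not share a direction. Of 21 measured genes of inhibition and quiescence 4 were 2-fold higher and 3 lower, with the transcription factor genes Klf9, Foxo1 and Foxo3 at 1.64, 1.62 and 1.44 and the inhibitors Cdkn2d and Cdkn2a at -1.83 and -1.27.

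Promoters of mitotic genes often carry a CHR element with the letters TTTGAA beside CCAAT boxes, the binding sites of NF-Y, so the 250 bases before the start of the mitosis genes were searched on both strands. Windows are RefSeq's on GRCm38.p6 and were given for 8037 of the 9861 members. TTTGAA was in 13 of 41 windows (31.7%), beside 16.3% of all 27025 windows and 9.86% of members' windows. CCAAT was in 31 of 41 windows (75.6%), beside 34.5% and 37.0%. The windows of Ccnb2 (chr9:70421555-70421804, reverse strand) and Mki67 (chr7:135716380-135716629, reverse strand) are shown because each holds both motifs and both genes were among the lowest shifts; capitals mark TTTGAA and CCAAT or its reverse complement.
Ccnb2: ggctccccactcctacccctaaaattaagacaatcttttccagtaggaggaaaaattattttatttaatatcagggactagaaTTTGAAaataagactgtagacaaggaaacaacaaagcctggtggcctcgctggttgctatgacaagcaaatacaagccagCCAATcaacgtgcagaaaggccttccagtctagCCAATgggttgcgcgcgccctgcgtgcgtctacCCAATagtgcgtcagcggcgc
Mki67: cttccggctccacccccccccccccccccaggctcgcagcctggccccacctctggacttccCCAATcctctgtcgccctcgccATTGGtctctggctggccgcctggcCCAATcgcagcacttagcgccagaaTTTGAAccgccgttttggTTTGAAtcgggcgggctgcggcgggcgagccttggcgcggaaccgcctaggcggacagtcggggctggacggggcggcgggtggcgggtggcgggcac
Ccnb2 has 1 TTTGAA, 167 bases before the start, and 3 CCAAT boxes 21 to 87 bases before it. Mki67 has 2 TTTGAA, 116 and 98 bases before the start, and 3 CCAAT boxes 141 to 188 bases before it. A match of letters is a description and not a bound site. In replication genes the E2F core TTTGGCGC was in 4 of 37 windows (10.8%), beside 0.437% of all windows and 0.986% of members' windows.

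Cholesterol synthesis genes were also lower at 24 h as a group. Of 23 measured genes 15 were at least 2-fold lower (65.2%, beside 8.57% of all members) and 0 higher. The list had a median of -1.39 and medians of -1.52 in ethanol and -1.26 in tamoxifen libraries. Farnesyl diphosphate synthase (Fdps) stood at 154 and 147 CPM at 12 h and at 25.9 and 28.3 CPM at 24 h (-2.47 ± 0.10, SE). Both 24 h groups lay far below both 12 h groups. The mevalonate enzymes Mvk, Mvd and Pmvk had shifts of -2.04, -2.03 and -1.88, squalene synthase (Fdft1) one of -1.96 and the sterol reductase gene Tm7sf2 one of -1.92. Acat2 had a shift of -2.24 with an SE of 0.29. Fdft1 shares 18.3% of its exon bases with a gene on the opposite strand. In the fatty acid synthesis list 1 of 16 genes was 2-fold lower (6.25%, beside 8.57% of all members), and the median was -0.36. It was the desaturase gene Fads2 at -1.98 ± 0.12 (SE). The desaturase gene Scd2 had a shift of -0.93 and Srebf1, which encodes the regulator SREBP1, one of -0.94, while Gpam, which starts glycerolipid synthesis, had one of 0.61.

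Sterol enzymes are controlled by SREBP2, which binds sterol elements and acts with NF-Y at CCAAT boxes. CCAAT was in 14 of 16 windows of cholesterol genes (87.5%), beside 34.5% of all windows and 37.0% of members' windows. It was not particular to lists that were lower at 24 h. The replication list had it in 23 of 37 windows (62.2%), and the ER chaperone list, with a median shift of 0.53, in 17 of 21 (81.0%). The sterol element core TCACNCCAC was in 1 of 16 windows of cholesterol genes, that of Hmgcs1, beside 1.04% of all windows. Hmgcs1, HMG-CoA synthase, was named for its window after its value was seen; its level went from 130 to 85.9 CPM (-0.60 ± 0.14, SE), a smaller shift than that of most of the list. Its window (chr13:119690101-119690350, forward strand) is shown with the sterol core and the 3 CCAAT boxes, all of them on the reverse strand, in capitals.
Hmgcs1: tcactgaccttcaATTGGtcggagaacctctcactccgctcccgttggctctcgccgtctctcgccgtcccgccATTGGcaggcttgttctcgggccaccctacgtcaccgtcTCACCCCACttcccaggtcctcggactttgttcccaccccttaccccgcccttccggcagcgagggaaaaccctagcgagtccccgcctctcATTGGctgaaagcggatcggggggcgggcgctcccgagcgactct
That 15 of 16 windows lack the core says only that these letters are not in those 250 bases.

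**Figure D2:**
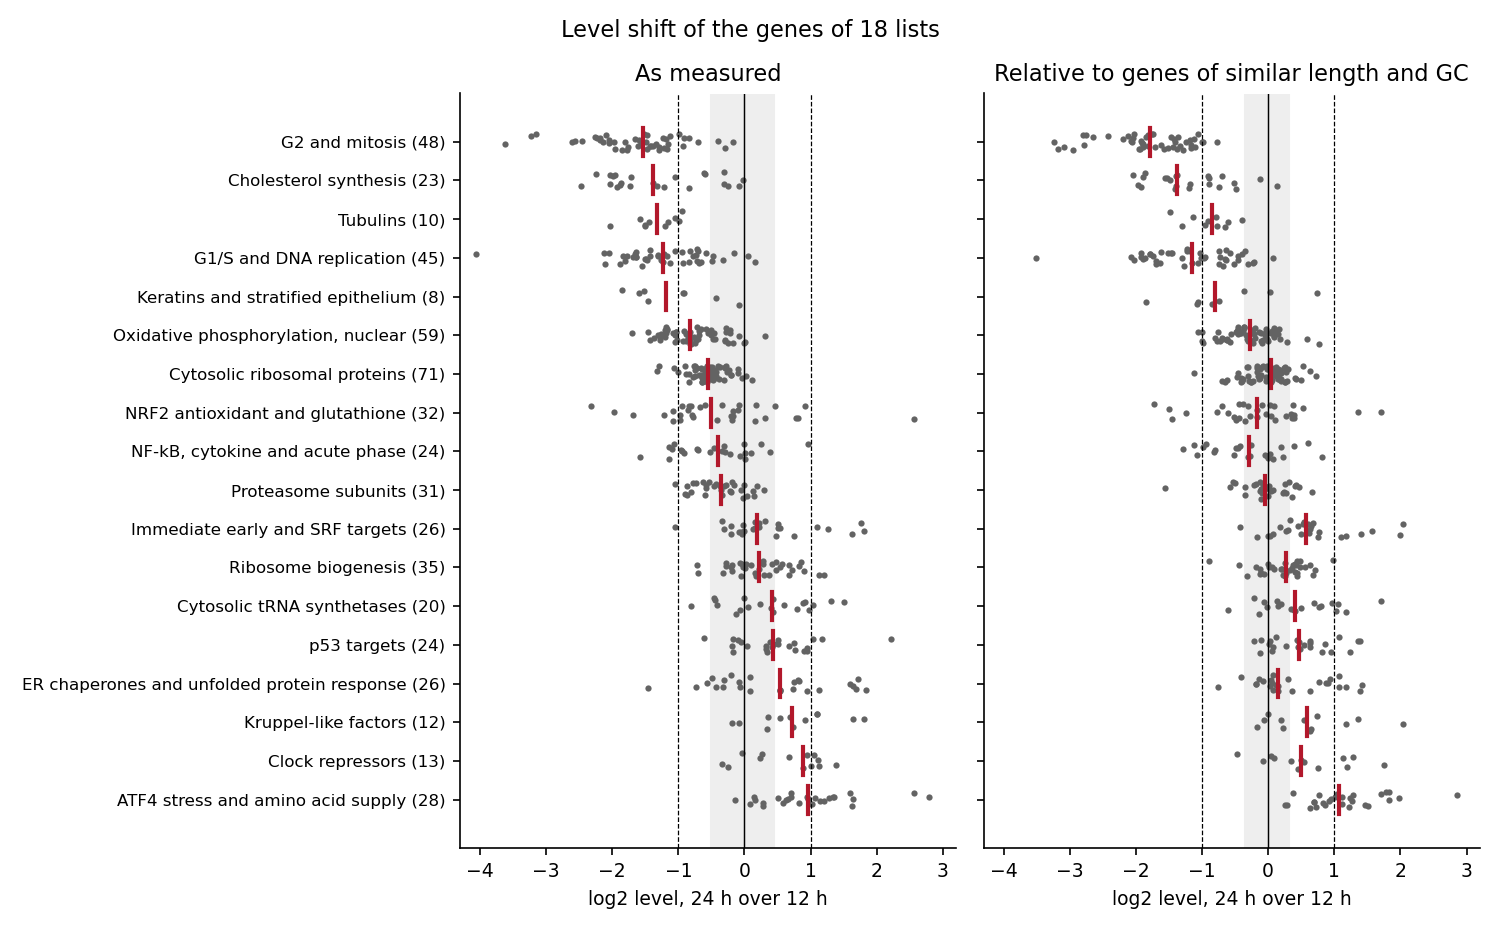
Level shift (x axis, log2 of 24 h over 12 h) of the measured genes of 18 lists, 1 point a gene and a red bar at the median; the left panel gives the shift and the right panel the shift minus the median of members of similar transcript length and GC content. Grey bands mark the quartiles of all genes and dashed lines 2-fold; G2 and mitosis has medians of -1.54 and -1.79 and cytosolic ribosomal proteins of -0.55 and 0.04.

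Genes of amino acid supply that ATF4 is known to control were higher at 24 h, and most of them had wide errors at 12 h. Of 28 measured genes 12 were at least 2-fold higher (42.9%, beside 7.41% of all members) and 0 lower. The list had a median of 0.96 and medians of 1.01 in ethanol and 0.82 in tamoxifen libraries. Beside Cth and Slc7a11, the cationic amino acid importer gene Slc7a1 stood at 225 and 267 CPM at 12 h and at 806 and 755 CPM at 24 h (1.65 ± 0.31, SE). The phosphatase cofactor gene Ppp1r15a, which ends the translation block of this response, stood at 114 and 79.6 CPM at 12 h and at 295 and 273 CPM at 24 h (1.59 ± 0.41, SE). The proline enzyme gene Pycr1 had a shift of 1.63 ± 0.43 (SE), the transcription factor gene Atf5 one of 1.34 ± 0.43 (SE) and the glutamine transporter gene Slc38a2 one of 1.27 ± 0.10 (SE). The deposited 12 h fold had an SE of at least 0.5 in 19 of the 28 genes, beside 0.852% of all members, and the median SE of the list was 0.63 at 12 h and 0.06 at 24 h, beside 0.16 and 0.08 for all members. The wide errors were therefore those of the 12 h libraries, and at 24 h libraries of the same arm differed little in these genes. With tamoxifen 8 of the 28 fell at 24 h and 0 rose in the authors' deposited table, beside 7.18% of all members lower.

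**Figure D3:**
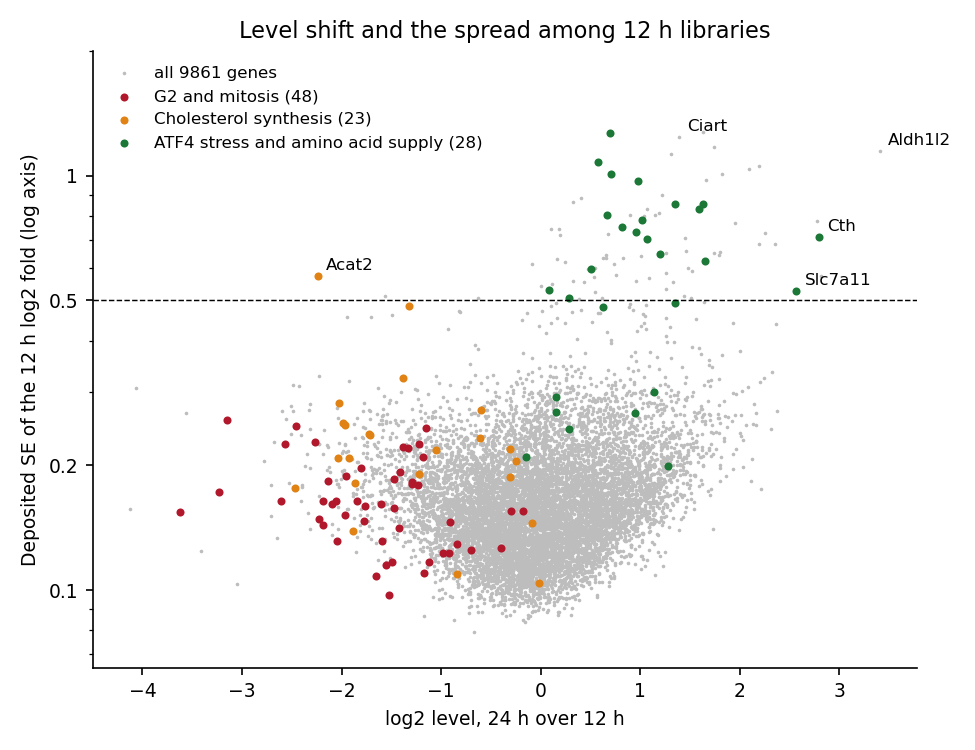
Deposited SE of the 12 h tamoxifen fold (y axis, log scale, log2 units) against the level shift (x axis, log2 of 24 h over 12 h) for 9861 genes; the dashed line marks an SE of 0.5. Of the 28 genes of ATF4 stress and amino acid supply, in green, 19 lie on or above the line, beside 84 of all genes, while 0 of the 48 mitosis genes do.

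The amino acid response element of ATF4, searched with the core TGATGNAAN, was in 5 of 24 windows of the list (20.8%), beside 3.51% of all windows and 1.77% of members' windows. Slc7a11 (chr3:50443614-50443863, reverse strand) is shown because its window holds 2 copies in opposite directions, 66 and 48 bases before the start, in capitals.
Slc7a11: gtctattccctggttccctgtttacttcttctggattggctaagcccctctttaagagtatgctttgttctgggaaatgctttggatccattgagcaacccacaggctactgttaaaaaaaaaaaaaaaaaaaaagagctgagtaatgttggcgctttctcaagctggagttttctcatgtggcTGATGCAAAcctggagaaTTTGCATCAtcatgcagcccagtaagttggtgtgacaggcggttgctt
The cytosolic tRNA synthetases, many of which ATF4 also controls, were higher at 24 h to a smaller degree, with a median of 0.41. Of 20 measured genes 3 were at least 2-fold higher (15%, beside 7.41% of all members) and 0 lower. Tryptophanyl-tRNA synthetase (Wars) had a shift of 1.51 ± 0.25 (SE), the bifunctional gene Eprs one of 1.30 ± 0.15 (SE) and Lars one of 1.04 ± 0.23 (SE), while Qars lay at -0.81 ± 0.08 (SE). The mitochondrial Lars2 stood on the other side, but it moved together with Rn45s and Mir6236. Whether its count follows the synthetase RNA was not tested, so Lars and Lars2 are not contrasted here.

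ER chaperone and unfolded protein response genes were split. Of 26 measured genes 6 were at least 2-fold higher (23.1%, beside 7.41% of all members) and 1 lower (3.85%, beside 8.57%). The list median was 0.53. The chaperone BiP (Hspa5) stood at 1041 and 862 CPM at 12 h and at 2720 and 2940 CPM at 24 h (1.59 ± 0.13, SE), so both 24 h group means lay above both 12 h group means. The oxidase gene Ero1l, the cochaperone gene Dnajb9 and the sensor genes Ern1 and Atf6 had shifts of 1.84, 1.72, 1.68 and 1.64, and Sdf2l1, a BiP partner in the ER, had one of -1.46. The median deposited 12 h SE of this list was 0.15, beside 0.16 for all members, and no gene of it reached 0.5. The named higher genes had wider errors than that median. Their 12 h SEs were 0.27 for Hspa5, 0.29 for Ero1l, 0.25 for Dnajb9, 0.32 for Ern1 and 0.495 for Atf6. The ER stress element core CCACG was in 16 of 21 windows (76.2%), beside 28.2% of all windows and 44.4% of members' windows. Hspa5 (chr2:34771840-34772089, forward strand) is shown because its window holds both parts of the element; capitals mark CCACG and CCAAT on either strand.
Hspa5: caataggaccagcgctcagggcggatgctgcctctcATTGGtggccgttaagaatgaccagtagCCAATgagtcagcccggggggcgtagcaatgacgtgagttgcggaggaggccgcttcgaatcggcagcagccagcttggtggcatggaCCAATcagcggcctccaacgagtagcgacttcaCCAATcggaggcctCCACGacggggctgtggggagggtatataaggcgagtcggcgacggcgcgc
CCACG lies 51 bases before the start and the nearest of 4 CCAAT boxes 65 bases before it.

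Clock repressor genes were higher at 24 h as a group, and so were 3 of the 4 measured activators. The clock runs through activators (Clock, Arntl) that bind E-boxes and repressors (Per, Cry, Nr1d) that close the loop. Of 13 measured clock repressors 5 were 2-fold higher (38.5%, beside 7.41% of all members) and 0 lower, with a list median of 0.89. Per1 stood at 76.1 and 71.9 CPM at 12 h and at 174 and 147 CPM at 24 h (1.12 ± 0.14, SE). Nr1d2, Cry1 and Cry2 had shifts of 1.12, 1.05 and 1.01. Of the 4 measured activators Clock had a shift of 1.28, Rorb of 1.03, Arntl of 0.96 and Arntl2 of -0.16. Activators and repressors therefore did not lie on opposite sides. Ciart had the largest shift of the repressors, 1.39, with an SE of 0.61 that came from 12 h (deposited SE 1.24 at 12 h and 0.09 at 24 h). The E-box CACGTG was in 4 of 9 windows of clock repressors (44.4%), beside 6.05% of all windows and 8.96% of members' windows. The window of Ciart (chr3:95882229-95882478, reverse strand), with 3 copies in capitals, is shown.
Ciart: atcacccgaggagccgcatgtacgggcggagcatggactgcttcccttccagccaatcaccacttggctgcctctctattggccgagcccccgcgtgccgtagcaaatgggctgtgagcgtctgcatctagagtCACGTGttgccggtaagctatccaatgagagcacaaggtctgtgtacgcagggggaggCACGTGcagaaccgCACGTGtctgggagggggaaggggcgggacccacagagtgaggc
The copies lie 116, 58 and 44 bases before the start, and CACGTG reads the same on both strands.

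Klf5 itself was higher at 24 h in both arms. Its level in ethanol libraries was 46.9 CPM at 12 h and 79.2 CPM at 24 h, and in tamoxifen libraries 19.2 and 24.1 CPM, shifts of 0.75 ± 0.18 and 0.33 ± 0.16 (SE). The tamoxifen libraries were below the ethanol libraries at both times, and the difference of the shifts, -0.43 ± 0.24 (SE), did not pass the threshold (adjusted p = 0.9999, Wald test with Benjamini-Hochberg adjustment). Reads from exons outside the floxed part count toward Klf5, and the labels leave the floxed exons unnamed. Of 12 measured Krüppel-like factors 4 were 2-fold higher (33.3%, beside 7.41% of all members) and 0 lower, with a list median of 0.71. The 4 were Klf4 at 1.80 ± 0.32 (SE), Klf9 at 1.64 ± 0.16, Klf6 at 1.10 ± 0.13 and Klf3 at 1.10 ± 0.10. Among 26 immediate early genes and SRF targets 5 were 2-fold higher (19.2%, beside 7.41% of all members) with a median of 0.19. In the same list 1 was 2-fold lower (3.85%, beside 8.57%). Atf3 had a shift of 1.63 with an SE of 0.63, Nr4a2 of 1.76 ± 0.14, Fosb of 1.26 ± 0.30 and Junb of -1.06 ± 0.14 (SE). Of 24 p53 targets 3 were 2-fold higher (12.5%, beside 7.41% of all members) and 0 lower, with a median of 0.43. Beside Trp53inp1 these were Zmat3 at 1.17 and the ribonucleotide reductase gene Rrm2b at 1.03, whose replicative counterpart Rrm2 lay at -2.04. In the hypoxia list 5 of 18 were 2-fold higher (27.8%, beside 7.41% of all members) and 1 lower (5.56%, beside 8.57%). Hif1a had a shift of 1.47 ± 0.12 (SE) and Vegfa one of 1.45 ± 0.35 (SE), and Egln3 one of -1.01.

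**Figure D4:**
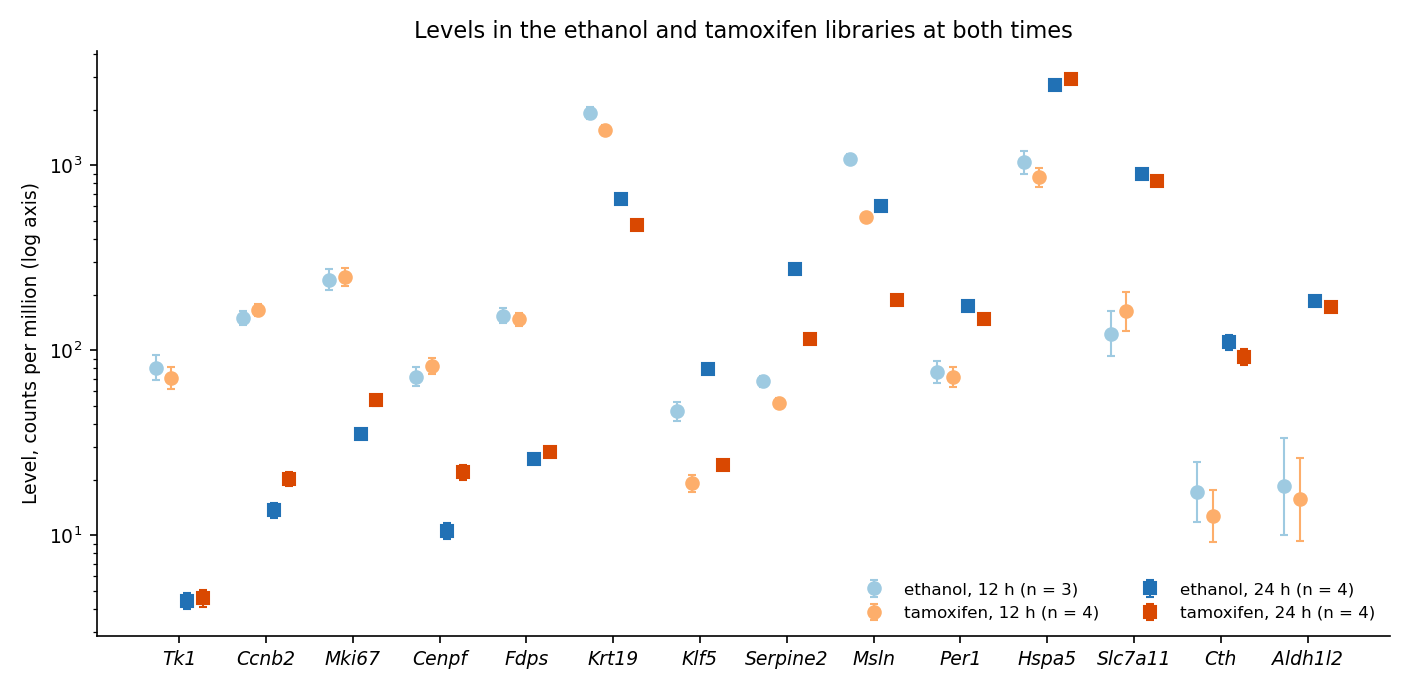
Levels of 14 genes (x axis) in CPM (y axis, log scale) in ethanol and tamoxifen libraries at 12 h (circles, n = 3 and 4) and 24 h (squares, n = 4 and 4); bars are 1 SE from the deposited error of the fold. Tk1, Ccnb2, Mki67, Cenpf and Fdps are lower and Slc7a11, Cth and Aldh1l2 higher in both 24 h groups, with wide bars for the last 3 at 12 h; Klf5 and Msln are separated by arm at both times.

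Nuclear genes of oxidative phosphorylation were lower at 24 h, and so were short transcripts in general. Of 59 such genes 21 were 2-fold lower (35.6%, beside 8.57% of all members) and 0 higher, with a median of -0.83; the cytochrome oxidase subunit gene Cox7a2 stood at 177 and 169 CPM at 12 h and at 54.7 and 51.0 CPM at 24 h (-1.70 ± 0.11, SE). Mitochondrially encoded genes were not analysed here. The 71 measured cytosolic ribosomal protein genes had a median of -0.55, but 4 were 2-fold lower (5.63%), a smaller share than that of all members, led by Rps28 at -1.32 and Rpl37a at -1.29; their values are uncertain where reads are shared with processed pseudogenes. The 31 proteasome subunit genes had a median of -0.36 with 1 (3.23%) 2-fold lower, Psma2 at -1.05. Ribosome biogenesis genes, which are longer, had a median of 0.22 and 2 of 35 (5.71%) 2-fold higher, beside 7.41% of all members, Heatr1 at 1.20 and Utp20 at 1.12.

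Across all 9830 members with a transcript in GENCODE, the shift was related to the length of the longest transcript (Spearman's rho 0.53 across genes) and to its GC content (rho -0.44). Genes share libraries and are not independent replicates, so no p is given. With the genes in 5 equal groups from the shortest to the longest transcripts, the median shift was -0.54, -0.24, -0.04, 0.19 and 0.53. Of the shortest group, at most 1852 bases, 21.0% were 2-fold lower and 1.02% higher; of the longest, from 5244 bases, 1.83% were lower and 21.7% higher. By GC the medians ran from 0.47 in the lowest of 5 equal groups to -0.40 in the highest. The medians by length were nearly equal in the arms, -0.54 and -0.55 in the shortest and 0.52 and 0.53 in the longest group for ethanol and tamoxifen libraries. The tamoxifen folds within a time followed length less, with rho of 0.13 at 12 h and 0.17 at 24 h. What the dependence on length and GC comes from was not tested.

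**Figure D5:**
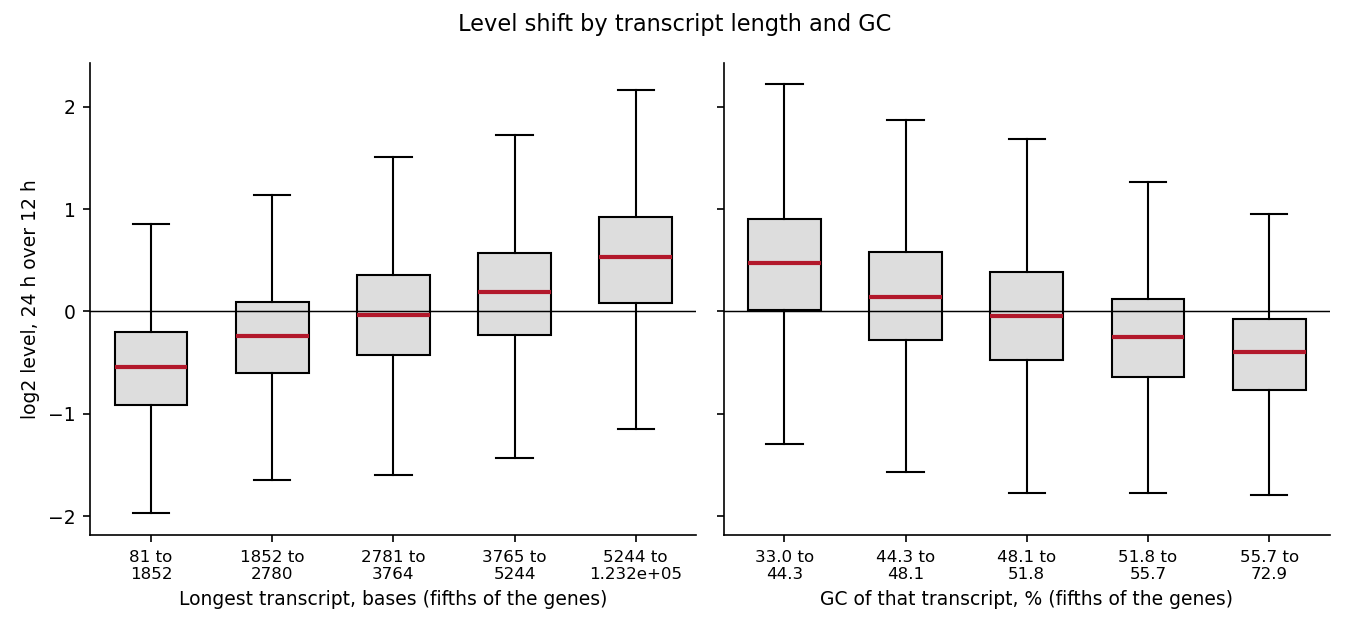
Level shift (y axis, log2 of 24 h over 12 h) for 5 equal groups of members by the length of the longest transcript (left, bases) and by its GC content (right, %); boxes span the quartiles, red lines are medians and whiskers reach 1.5 times the quartile range. Medians go from -0.54 to 0.53 with length and from 0.47 to -0.40 with GC.

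Each gene was therefore also set against members of similar length and GC, in 100 classes. Relative to its class 276 genes were 2-fold higher (2.81%) and 532 lower (5.41%), of which 195 and 383 were also 2-fold shifted in level. The SD of the shifts over genes went from 0.73 to 0.59. The mitosis list stayed low with a median of -1.79 and 45 of 48 genes 2-fold lower, the replication list with -1.16 and 26 of 45, and the cholesterol list with -1.38 and 14 of 23. The ATF4 list stayed high with 1.08 and 16 of 28. The oxidative phosphorylation list moved to -0.27 with 2 of 59 genes 2-fold lower, the ribosomal proteins to 0.04, the proteasome to -0.05, the clock activators to 0.29 and the ER list to 0.16. The clock repressors lay at 0.50, the Krüppel-like factors at 0.59 and the immediate early genes at 0.57. Single genes moved too: of 140 genes followed one by one that were 2-fold shifted in level, 40 were less than 2-fold from their class. For the ribosomal protein list the median level shift was close to that of members of similar length and GC, while the oxidative phosphorylation list stayed below them at -0.27. The genes of a list are themselves counted in their classes.

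The cytoskeleton and the epithelial genes of the line were lower in part. Of 10 measured tubulin genes 8 were 2-fold lower (80%, beside 8.57% of all members), with a list median of -1.32 (-0.85 relative to class). Tubb5 stood at 1364 and 1405 CPM at 12 h and at 475 and 503 CPM at 24 h (-1.50 ± 0.08, SE). Tuba1b and Tuba1a had shifts of -2.04 and -1.57, and alpha tubulin genes are near-identical, so reads may be shared among them. Of 27 actin cytoskeleton genes 4 were 2-fold lower (14.8%, beside 8.57% of all members) and 0 higher, with a median of -0.36. The lower genes included calponin 2 (Cnn2) at -1.87 and villin (Vil1), the bundler of microvilli, at -1.62, while radixin (Rdx) lay at 0.92. The biliary keratin gene Krt19 stood at 1920 and 1560 CPM at 12 h and at 654 and 477 CPM at 24 h (-1.60 ± 0.08, SE), and Krt7, Krt8 and Krt18 had shifts of -1.85, -1.51 and -0.91. The biliary identity list as a whole had a median of -0.16 with 4 of 20 genes 2-fold lower (20%, beside 8.57% of all members). Of the 4, 3 were keratins and the other was the transcription factor gene Elf3 at -1.08. Pkd2, a cilium channel gene, lay at 0.86. In the tight junction and polarity list 5 of 16 were 2-fold higher (31.25%, beside 7.41% of all members) and 0 lower. Among the higher genes were the adhesion receptor gene Cxadr at 1.80, Cldn12 at 1.30 and the scaffold gene Tjp1 at 1.07. The list median of 0.37 was 0.10 relative to class and -0.22 with a lower minimum mean of 10.

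Genes of inflammation and of the NRF2 and glutathione list were lower in part. Of 24 measured genes of NF-kB, cytokines and the acute phase 5 were 2-fold lower (20.8%, beside 8.57% of all members) and 0 higher. The list median was -0.40. The monocyte chemokine gene Ccl2 stood at 398 and 735 CPM in ethanol and tamoxifen libraries at 12 h and at 161 and 235 CPM at 24 h (-1.58 ± 0.17, SE), and Cxcl5, Vcam1 and Ccl20 had shifts of -1.15, -1.15 and -1.09. Ptgs2, cyclooxygenase 2, had one of 0.95 ± 0.31 (SE). Of 14 measured interferon genes 2 were 2-fold lower (14.3%, beside 8.57% of all members) and 0 higher. They were the tetherin gene Bst2 at -1.47 and Irf1 at -1.07. In the list of NRF2 targets and glutathione enzymes 6 of 32 were 2-fold lower (18.75%, beside 8.57% of all members) and 1 higher (3.125%, beside 7.41%). The lower genes included the glutathione transferase genes Gsta1, Gsta4 and Gstp1 at -2.32, -1.97 and -1.21 and the epoxide hydrolase gene Ephx1 at -1.69. The higher gene was Slc7a11 at 2.57. The median of -0.51 was -0.17 relative to class, and Gsta genes are similar in sequence and may share reads. The list of the xenobiotic receptor AhR and drug metabolism ran the other way, with a median of 0.32. In it 2 of 7 measured genes were 2-fold higher (28.6%, beside 7.41% of all members) and 0 lower. Tiparp, a feedback inhibitor of AhR, lay at 1.78 ± 0.13 (SE) and the cytochrome P450 gene Cyp3a13 at 1.42 ± 0.08 (SE). Among integrin and basement membrane genes 2 of 21 were higher, Itgav at 1.32 and Dst at 1.13, and 2 were at least 2-fold lower, Itgb6 at -2.09 and Lamb3 at -1.39, shares of 9.52% each that are near those of all members (7.41% and 8.57%). Itgb6 went from 31.6 and 16.0 CPM in ethanol and tamoxifen libraries at 12 h to 8.36 and 2.25 CPM at 24 h, and it fell with tamoxifen at both times in the authors' deposited table.

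Whether the shift differed between the arms was tested for 14981 genes as the 24 h minus the 12 h tamoxifen fold, with a Wald test and Benjamini-Hochberg adjustment over all of them. It was called in 2 genes (0.0134%), both of them members (0.0203% of those), and 176 members had an unadjusted p under 0.05. Serpine2, which encodes the protease inhibitor nexin-1 (chromosome 1, 79794197 to 79861180), stood at 68.0 CPM in ethanol and 51.8 CPM in tamoxifen libraries at 12 h and at 276 and 115 CPM at 24 h. Its shift was 2.02 in ethanol and 1.15 in tamoxifen libraries, a difference of -0.87 ± 0.17 (SE; adjusted p = 0.0035). Msln, the surface glycoprotein mesothelin (chromosome 17, 25748613 to 25754378), stood at 1090 and 525 CPM at 12 h and at 601 and 186 CPM at 24 h. Its shifts were -0.85 and -1.49, a difference of -0.64 ± 0.13 (SE; adjusted p = 0.00485). Both genes moved the same way in both arms, and both ended lower in tamoxifen libraries. The difference was wide but not called in Cep290, a gene of the ciliary transition zone, at 1.84 ± 0.52 (SE; adjusted p = 0.82), and in Dlc1, which encodes a GTPase-activating protein, at -0.76 ± 0.19 (SE; adjusted p = 0.34). The median difference was near 0 for all members, and the 12 h errors, with a median of 0.16 per fold, limit what could be called.

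The tamoxifen calls of the shifted genes were then counted. By the authors' deposited table, at 24 h, tamoxifen calls were made for 157 of the 731 higher genes (21.5%) and 147 of the 845 lower genes (17.4%), beside 13.7% of all members. The directions differed: of the higher genes 52 rose and 105 fell with tamoxifen, and of the lower genes 102 rose and 45 fell, beside 641 and 708 of all members. At 12 h the authors' deposited table calls 3 of the 731 (0.410%) and 20 of the 845 (2.37%), beside 1.02% of all members. The level at 24 h enters both counts, so they are descriptions and were not tested. Examples that fell with tamoxifen in that table and were higher at 24 h are Dlc1, B3galnt2 and Serpine2, with levels at 24 h in ethanol and tamoxifen libraries of 96.7 and 44.1 CPM, 293 and 184 CPM, and 276 and 115 CPM.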

How the data were processed

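RNA-seq libraries (TruSeq, unstranded, per the labels' protocols) were assigned to arm and time by their titles. The submitters' processing notes name HISAT2, DESeq2 and mm10, without versions. How reads were counted, and on which annotation, is not given in the sources used here. Per the file headers, the authors deposited 1 table per time with the mean normalised count signal per gene, the log2 fold of tamoxifen over ethanol with its SE, the Wald score, and p-values before and after adjustment. No values per library were used. Genes with a single read served to check which arm is the numerator: at 12 h their 7 distinct means split into 3 with negative and 4 with positive folds, as 3 ethanol and 4 tamoxifen libraries require.

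Levels are shares of the sum of a table's means. Arm levels were split from the mean with the deposited fold and the library numbers, so the overall shift weights arms 3 to 4 at 12 h and 4 to 4 at 24 h. Scripts in Python 3.11.15 (scipy 1.17.1, pandas 2.3.3, numpy 2.4.6; plots with matplotlib 3.10.9) were tested on simulated data. Transcript lengths and positions are GENCODE's on GRCm38 (mm10), and promoters RefSeq's.

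Members and lists were chosen with earlier results of these data known. Named genes are the 20 largest shifts in each direction, up to 8 of each list by size of shift, the 10 highest shares, Klf5, up to 5 per direction for the difference between arms and 2 on each side of the minimum; symbols of predicted genes, Rik clones and pseudogenes were not named, and not every selected gene is in the text. The check of lengths and GC, the sum without Rn45s, Mir6236 and Lars2, and the count of wide 12 h errors were chosen after seeing the data.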

Additional observations from a re-analysis of the deposited data

Results flagged for a closer look

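Msln and Serpine2 were singled out because the level shift differed between ethanol and tamoxifen libraries by a test of the difference itself. For Serpine2 the tamoxifen minus ethanol difference of the shifts was -0.87 on the log2 scale, from 2.02 in ethanol libraries to 1.15 in tamoxifen libraries, and for Msln it was -0.64, from -0.85 to -1.49. Both genes were lower in the tamoxifen libraries at 24 h, at 115 against 276 CPM for Serpine2 and at 186 against 601 CPM for Msln.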

How the results depend on the processing

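No paired analysis was possible because the deposited tables hold no values per library, and for the same reason no library could be left out. Of 390 counts and list medians recomputed under the alternatives, 364 moved by less than the spread among libraries or, for counts, by less than 1.5 times. Scaling by the median of all genes, by a sum without the 100 highest genes or without Rn45s, Mir6236 and Lars2, either arm alone, equal arm weights, a pseudocount of 1 and other adjustments moved none of these past that. Among single genes, 13 of 159 shifts moved past it with ethanol and 16 with tamoxifen libraries alone.

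Relative to members of similar transcript length and GC, 276 genes were 2-fold higher and 532 lower, and 2 oxidative phosphorylation genes remained 2-fold lower. List medians were then -1.79 for mitosis, -0.85 for tubulins, -0.80 for keratins, -0.27 for oxidative phosphorylation, -0.21 for actin, -0.17 for NRF2, -0.082 for glycolysis, -0.054 for the proteasome, 0.10 for tight junctions, 0.16 for the ER list, 0.29 and 0.50 for clock activators and repressors and 0.57 for immediate early genes, and the ribosomal proteins changed sign to 0.037. Of 158 single genes 104 moved by more than the spread among libraries, and 40 of 140 that were 2-fold shifted no longer were, such as Id1 (-1.06 to -0.25), Tgfbr1 (1.12 to 0.29), Nr1d2 (1.12 to 0.35), Mt2 (-1.22 to -0.41) and Gstp1 (-1.21 to -0.51). A minimum mean of 200 left 447 genes 2-fold lower, medians of -1.05 for cholesterol with 8 genes lower, -1.03 for replication with 13 lower, -0.27 for NRF2 and 0.44 for cell cycle inhibitors, with fewer genes in each list. A minimum of 10, with more genes, gave -0.93 for keratins and turned tight junctions to -0.22. The cause of these differences was otherwise not tested.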

Other observations

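Some groups not described above held members on both sides. In the primary cilium list, 2 of 28 measured genes were at least 2-fold higher at 24 h (7.14%) and 3 lower (10.7%), near the 7.41% and 8.57% of all members, with a median shift of -0.22. They were the retrograde motor gene Dync2h1 at 1.56 ± 0.12 (SE) and the transport gene Ift172 at 1.04 ± 0.11 (SE), against Ift27 at -1.83 ± 0.11 (SE), Cep290 at -1.32 ± 0.26 (SE) and Bbs9 at -1.02 ± 0.15 (SE). The shift of Cep290 was -2.48 in ethanol and -0.64 in tamoxifen libraries, so it was not 2-fold lower in the latter. Among 17 glucocorticoid targets 4 were 2-fold higher (23.5%, beside 7.41% of all members) and 3 lower (17.6%, beside 8.57%). The receptor gene Nr3c1 had a shift of 1.56 ± 0.12 (SE), Klf9 of 1.64, Per1 of 1.12 and the kinase gene Sgk1 of 1.05, whereas the metallothionein genes Mt1 and Mt2 lay at -1.39 and -1.22 and Pdk4 at -1.16; Mt2 shares 73.5% of its exon bases with a gene on the opposite strand. Among 19 TGF-beta and matrix genes 3 were 2-fold higher and 3 lower (15.8% each, beside 7.41% and 8.57% of all members). Snai2 lay at 1.66, fibronectin (Fn1) at 1.29 ± 0.10 (SE) and the receptor gene Tgfbr1 at 1.12 ± 0.12 (SE), against Id3 at -1.55, Smad6 at -1.17 and Id1 at -1.06.

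Wide 12 h errors also occurred outside the ATF4 list. Of 11 snoRNA host genes 4 had a deposited 12 h SE of at least 0.5, and Snhg12 and Snhg1 had shifts of 1.15 ± 0.40 and 1.07 ± 0.41 (SE). Snai2 had a deposited SE of 0.98 at 12 h and 0.09 at 24 h and no p-value at 12 h in the authors' deposited table. Of 24 p53 targets 3 had such an SE, Gadd45a among them, with a shift of 0.89 ± 0.40 (SE).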
